A study of Mus musculus with 12 samples.

Results

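The genes examined were 10 writers, readers and chaperones of H3K9-methylated heterochromatin, taken by symbol from a count table of 24421 genes, and all 10 passed the filter of a mean of at least 1 RPKM that left 11378 genes for testing. They were the methyltransferase genes Suv39h1, Suv39h2, Setdb1, Ehmt1 and Ehmt2, the HP1 reader genes Cbx1 and Cbx5, the corepressor gene Trim28, and Atrx and Daxx, whose products form a chaperone complex for the histone variant H3.3. RNA-seq of total RNA was done on mES cells of the B6 strain, grown as 2i+LIF ESC with the genotype Brg1 dTag knock in, in which both control and treated cells carry the FKBP12 F36V degron on BRG1, the ATPase of the mSWI/SNF remodeller. The knock-in cells come from single-cell-derived colonies of 1 line, which all 12 libraries share. Cells received 0.3, 1, 3, 10 or 100 nM dTAG13, the small molecule that sends the tagged protein to the proteasome, for 24 h, and the controls (0 nM) received no dTAG13. Each of the 6 conditions had 2 libraries, 12 in all.

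Constitutive heterochromatin is marked by di- and trimethylation of lysine 9 of histone H3. SUV39H1 and SUV39H2 lay down the trimethyl mark at pericentric repeats, SETDB1 does so at endogenous retroviruses and at some germline genes, where TRIM28 (KAP1) recruits it through KRAB zinc finger proteins, and the pair EHMT1 (GLP) and EHMT2 (G9a) makes the dimethyl mark at silent genes. HP1 proteins bind the methylated tail, and in mES cells ATRX and DAXX deposit H3.3 at telomeres, pericentric repeats and retroviral elements.

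Across the dose series the transcripts of this machinery moved little. Trim28 rose to 1.26-fold of control at 100 nM, Atrx fell to 0.828-fold, and the other 8 genes did not pass the test at 100 nM. The largest change of any of the 10 was under 1.5-fold at every dose, and the median absolute log2 fold change at 100 nM was 0.12 over the 10 genes and 0.21 over all genes tested. These medians were already 0.042 and 0.107 at 0.3 nM, where 0.0703% of all tested genes were called. The part of expression level and counting noise in this gap was not tested. The 2 genes that moved, 1 in each direction, are shown with the 250 bases before their start sites, taken from RefSeq (GRCm38.p6, the assembly also called mm10) and written 5′ to 3′ on the strand of the gene. Capitals mark the GC-box letters GGGCGG and the CCAAT-box letters CCAAT, each searched on both strands, so that CCGCCC and ATTGG are marked as well. The promoter of Trim28 spans chr7:13023902-13024151 on the plus strand and that of Atrx spans chrX:105929373-105929622 on the minus strand.
Trim28: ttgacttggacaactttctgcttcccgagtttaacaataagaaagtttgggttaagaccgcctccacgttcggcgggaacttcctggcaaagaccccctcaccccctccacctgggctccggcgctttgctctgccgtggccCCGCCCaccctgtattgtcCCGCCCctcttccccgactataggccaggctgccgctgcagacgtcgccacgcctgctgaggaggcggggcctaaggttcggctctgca
Atrx: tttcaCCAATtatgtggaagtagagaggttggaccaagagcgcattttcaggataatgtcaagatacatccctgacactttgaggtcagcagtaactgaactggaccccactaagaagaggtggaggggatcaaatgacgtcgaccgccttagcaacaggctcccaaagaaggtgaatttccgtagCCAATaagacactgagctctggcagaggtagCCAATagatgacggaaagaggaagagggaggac
The Trim28 window held 2 GC boxes and no CCAAT box, whereas the Atrx window held 3 CCAAT boxes and no GC box. Entries for all 10 genes were matched. A GC box was found in 9 of the 10 windows, Atrx being the exception, and in 32.7% of the 32841 promoter windows of the same length. Those windows were taken without a filter on expression, whereas all 10 genes passed one. A CCAAT box was found in 5 of the 10 windows and in 33.9% of all windows. GC content ran from 48.4% in Atrx to 70.4% in Daxx, with a median of 60.6% against 52.4% over all windows, and CpG counts ran from 6 in Atrx to 29 in Daxx against a median of 6. A match of letters is a description and no binding was measured here.

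Library totals ran from 4663484 to 6375582 counts, of which the ribosomal precursor Rn45s took 10.5 to 19.4%. The ES-cell label was checked against 8 pluripotency genes, among them Pou5f1 and Nanog, all of which were detected, with a summed level of 2060 to 2080 RPKM at 0 nM and 1830 to 1870 RPKM at 100 nM. At 100 nM 2 of the 8 rose and 4 fell, among them Nanog (log2 fold change 0.52), Tfcp2l1 (-0.64) and Dppa5a (-0.48), each a larger change than that of any of the 10 genes. The 13 markers of other cell types summed to 18.8 to 22.4 RPKM at 0 nM and 30 to 32.4 RPKM at 100 nM. Of these 13, Cdx2, a trophectoderm regulator, rose from 0.552 to 4.76 RPKM (edgeR adjusted p = 2.4e-06) and Eomes, of the same lineage, from 9.22 to 11.6 RPKM (edgeR adjusted p = 0.0465), whereas Elf5, the third trophectoderm marker, had 1 or 2 counts in each of these 4 libraries. The neural regulator Pax6, under the filter, rose from 1 and 2 counts to 28 and 28 (edgeR adjusted p = 4.5e-08 in a fit of all genes with a count). Sox1, the other neural marker, read 3.27 RPKM at 0 nM and 3.57 RPKM at 100 nM and was not called (edgeR adjusted p = 0.642). The part of these shifts in the results below was not tested, and in such bulk samples fewer cells of a type and less RNA per cell cannot be told apart. The Smarca4 transcript, which encodes BRG1, stood at 64.2 and 63.5 RPKM at 0 nM and at 71.3 and 71.2 RPKM at 100 nM; as dTAG13 acts on the protein, this level is no check of the treatment.

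The levels of the 10 genes, as RPKM (counts scaled to exon length and to the library total of the tested genes, with TMM factors), covered a wide range. Trim28 led with a mean of 596 RPKM over the 12 libraries (529 to 694) and lay above 98.9% of the tested genes. Cbx1, which encodes HP1β, followed at 150 RPKM (139 to 165), with no overlap with its neighbours in this order. Cbx5, the gene of HP1α, at 69.3 RPKM (66.4 to 72.7) and Atrx at 64.7 RPKM (55.7 to 70.2) overlapped. Daxx at 39.6 RPKM (36.6 to 43.8) and Ehmt2 at 39.4 RPKM (36 to 42.2) overlapped likewise. Setdb1 at 28.6 RPKM (26.7 to 30.8) and Ehmt1 at 20.4 RPKM (18.2 to 22.3) each stood apart from the genes next to them. Suv39h2 at 9.68 RPKM (8.28 to 11.2) and Suv39h1 at 7.82 RPKM (6.68 to 8.79) were the lowest and overlapped with each other. Depth differed accordingly, from 9945 to 13582 counts per library for Trim28 down to 111 to 178 for Suv39h1, so that the standard error of the log2 fold change at 100 nM was 0.056 for Trim28 and 0.139 for Suv39h1.

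**Figure D1:**
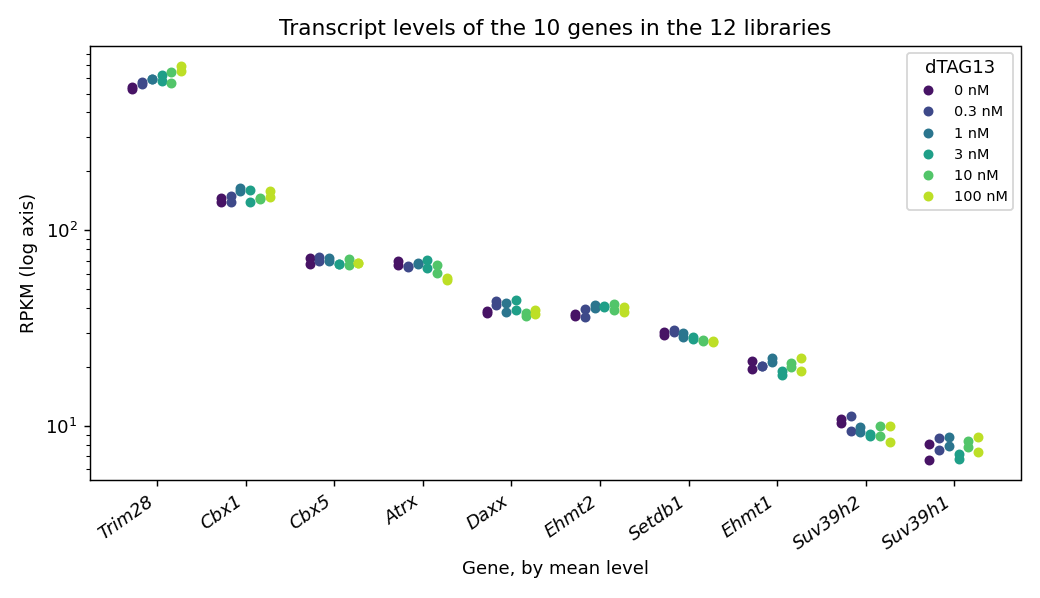
RPKM (log axis) of the 10 genes in the 12 libraries, 1 point per library, ordered by mean level and coloured by dTAG13 dose. Trim28 sits at 529 to 694 RPKM and Suv39h1 at 6.68 to 8.79 RPKM, and within a gene the spread over doses is small beside the distance between Trim28, Cbx1 and the rest.

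Every dTAG13 dose was tested against the controls with the quasi-likelihood test of edgeR, with Benjamini-Hochberg adjustment over all 11378 genes (s.e. denotes the standard error of a log2 fold change), and a gene was called at an adjusted p under 0.05. No gene of the 10 was called at 0.3 nM, where 0.0703% of all tested genes were, at 1 nM, where 2.29% were, or at 3 nM, where 9.4% were. The labels of the 0.3 and 3 nM libraries carry another run of numbers than those of the controls and the other doses. A difference between these runs, if any, cannot be told apart from dose at 0.3 and 3 nM. Among the 10, an unadjusted p under 0.05 was seen for 0 at 0.3 nM, 2 at 1 nM (Cbx1 and Trim28) and 2 at 3 nM (Suv39h2 and Trim28); DESeq2 was run at 100 nM only. At 10 nM, 1 of the 10, Trim28, was called, beside 17.9% of all tested genes. At 100 nM the 2 of 10 called, Trim28 and Atrx, stood beside a background of 23.4% called, so the count is near that of genes at large. By direction, 1 of 10 was higher at 100 nM against 10.1% of all genes and 1 of 10 was lower against 13.3%. With a fold over 1.5 required as well, 0 of the 10 were called at 100 nM against 11.2% of all genes.

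**Figure D2:**
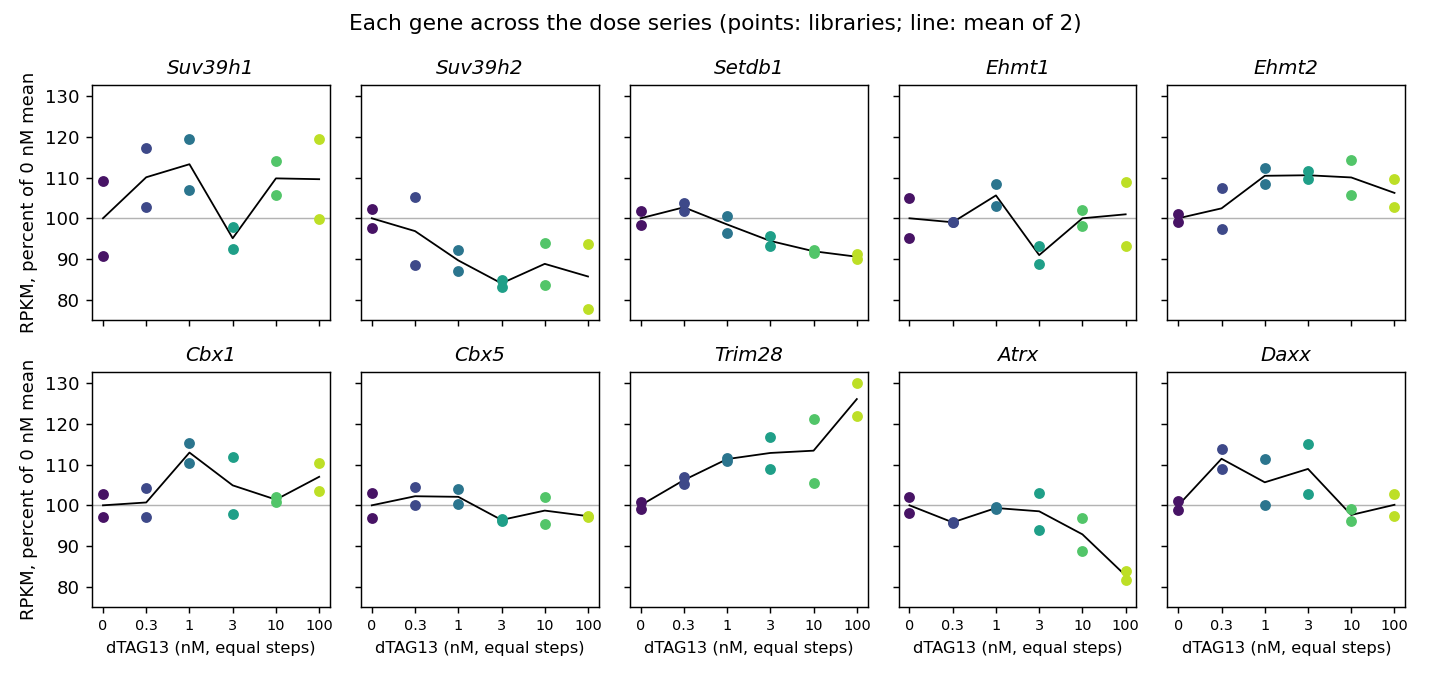
RPKM of each gene as a percentage of its mean at 0 nM, against dTAG13 dose in equal steps, with 1 point per library and a line through the mean of 2. Trim28 goes up to 126% and Atrx down to 82.8% at 100 nM, and the Setdb1 libraries drift down to 90.4% with little spread within a dose.

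The corepressor gene Trim28 (mm10 chromosome 7, 13024152 to 13031032) had the largest rise of the 10 at 100 nM. TRIM28 is the scaffold that joins KRAB zinc finger proteins to SETDB1, HP1 and histone deacetylases. Listed by dose from 0 to 100 nM, its library levels were 529 and 538, 571 and 562, 592 and 596, 623 and 581, 647 and 563, and lastly 694 and 651 RPKM. Every treated library was above both control libraries, the widest gap within a dose was that at 10 nM, and the 100 nM libraries were the highest of all 12. The log2 fold change at 100 nM was 0.33 (s.e. 0.056; edgeR adjusted p = 6.2e-05), a 1.26-fold rise with a 95% interval of 1.16 to 1.37. At 10 nM it was 0.18 (s.e. 0.056; edgeR adjusted p = 0.0244) and at 3 nM 0.17 (adjusted p = 0.0504), just outside the threshold. The size at 10 nM depended on the library kept at that dose, and the call at 10 nM was not kept with every single library left out. The log2 fold change of Trim28 was 0.072 without replicate 1 of 10 nM and 0.278 without replicate 2 of 10 nM. Without replicate 1 or 2 of 0 nM it was 0.163 and 0.186. At 100 nM the call held under all 14 alternatives, with an adjusted p from 1.3e-07 to 0.00634.

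Atrx (mm10 chromosome X, 105797615 to 105929372) was the gene that fell. ATRX is a SNF2-family ATPase that reads H3K9me3 next to unmodified lysine 4 and recruits DAXX. In the same order of doses, its library levels were 69.5 and 66.8, 65.4 and 65.2, 67.8 and 67.6, 64.1 and 70.2, 60.5 and 66.1, and lastly 55.7 and 57.1 RPKM. The 1 and 3 nM libraries overlapped the controls, and both 100 nM libraries were below all of the other 10. On the log2 scale the change was -0.021 for 3 nM, -0.11 for 10 nM (adjusted p = 0.211) and -0.27 for 100 nM (s.e. 0.0557; edgeR adjusted p = 0.000615), a level of 0.828-fold with a 95% interval of 0.765 to 0.897. The adjusted p at 100 nM ran from 2.8e-09 to 0.0525 over 14 alternatives and missed the threshold only with no normalization factors. Its partner Daxx, the H3.3-specific chaperone, stood at 37.7 and 38.5 RPKM at 0 nM and at 39.2 and 37.1 RPKM at 100 nM, so that the groups overlapped. The fitted change of Daxx at 100 nM was 1-fold with a 95% interval of 0.893 to 1.12.

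Among the 5 methyltransferase genes none was called at any dose. Setdb1 (mm10 chromosome 3, 95323525 to 95357202), whose product works with TRIM28, came closest. By rising dose its libraries read 30.2 and 29.2, 30.8 and 30.2, 28.6 and 29.9, 28.4 and 27.7, 27.4 and 27.2, and lastly 26.7 and 27.1 RPKM. From 3 nM on, both libraries of each dose lay below both controls. The log2 fold change of Setdb1 at 100 nM was -0.15 (s.e. 0.0688; edgeR adjusted p = 0.136), a level of 0.905-fold with a 95% interval of 0.82 to 0.998. In a fit of all 23204 genes with a count, whose TMM factors set the median of the tested genes at -0.081, the value was -0.23 and Setdb1 was called (adjusted p = 0.0401). Setdb1 shares 44 exon bases, 0.944% of its exons, with Cers2 on the opposite strand, and the counting did not use strand.

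Suv39h2 read 10.9 and 10.4 RPKM in the controls and 9.98 and 8.28 RPKM at 100 nM. On the log2 scale it differed by -0.25 for 3 nM (adjusted p = 0.211) and by -0.22 for 100 nM (s.e. 0.115; edgeR adjusted p = 0.175), with a 95% interval at 100 nM of 0.726 to 1.01-fold. Suv39h2 shares 210 exon bases, 4.9% of its exons, with Dclre1c on the opposite strand. The paralogue Suv39h1, on the X chromosome, read 8.03 and 6.68 RPKM at 0 nM and 7.34 and 8.78 at 100 nM, and its interval of 0.9 to 1.34-fold was the widest of the 10, from the lowest counts. The G9a gene Ehmt2 read 36.6 and 37.3 RPKM at 0 nM and 40.5 and 38 at 100 nM. Both libraries of Ehmt2 at 1, 3, 10 and 100 nM were above both controls, yet its change at 100 nM was 1.06-fold with a 95% interval of 0.96 to 1.18 (edgeR adjusted p = 0.417). Ehmt1, the partner of Ehmt2, read 21.5 and 19.5 RPKM at 0 nM and 22.3 and 19.1 at 100 nM, a change of 1.01-fold with a 95% interval of 0.899 to 1.14.

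The HP1 genes showed no call either. Cbx1 had 139 and 147 RPKM in the controls, 158 and 165 RPKM with 1 nM and 158 and 148 RPKM with 100 nM, with a 95% interval at 100 nM of 0.965 to 1.18-fold. Its highest level was thus at 1 nM, where the log2 fold change was 0.17 (s.e. 0.0709; edgeR adjusted p = 0.255). Cbx5 had 67.5 and 71.8 RPKM at 0 nM and 67.9 and 67.7 at 100 nM, and its interval of 0.902 to 1.05-fold was the narrowest on the fold scale among the 8 genes not called.

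**Figure D3:**
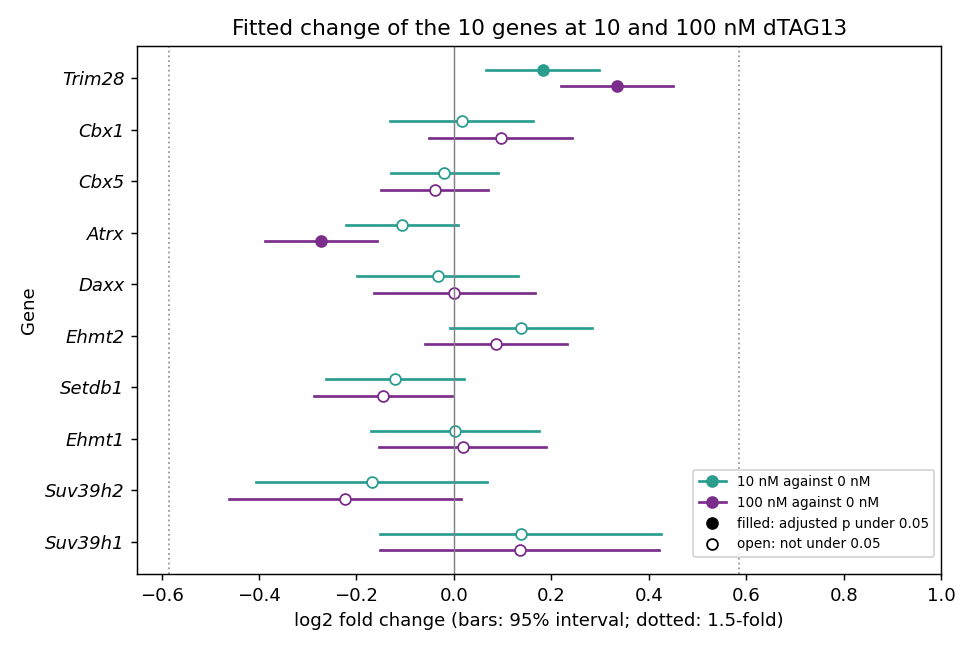
Fitted log2 fold change of the 10 genes at 10 nM and at 100 nM against 0 nM, with 95% intervals, filled where the adjusted p was under 0.05 and with dotted lines at 1.5-fold. Filled points are Trim28 at both doses and Atrx at 100 nM, and no interval crosses a dotted line.

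A trend over the 6 conditions, taken in equal steps, uses all 12 libraries and was called for 32.2% of all tested genes and for 3 of the 10. Trim28 rose by 0.056 on the log2 scale per step (s.e. 0.00947; edgeR adjusted p = 4.2e-05). Atrx fell by 0.043 per step (adjusted p = 0.000854) and Setdb1 fell by 0.036 per step (adjusted p = 0.0193). The Setdb1 trend missed the threshold, at slopes of like size, without replicate 1 of 0 nM (-0.033 per step, adjusted p = 0.0845), without replicate 1 of 100 nM (-0.035, adjusted p = 0.0758) and without replicate 2 of 100 nM (-0.038, adjusted p = 0.0528). It missed the threshold as well in the 8 libraries of 0, 1, 10 and 100 nM (-0.053 per step between these wider-spaced doses, adjusted p = 0.0832), whose labels share 1 run of numbers; no batch is named. Suv39h2 had a trend of -0.045 per step (adjusted p = 0.0816), which was called without replicate 2 of 0.3 nM (adjusted p = 0.0394) and without replicate 1 of 100 nM (adjusted p = 0.0375). In 3 nM against 0.3 nM, the libraries of the other run of numbers, 5.31% of all genes and none of the 10 were called, with none at an unadjusted p under 0.05. In 100 nM against 10 nM, 2.37% of all genes and none of the 10 were called with edgeR, though Trim28 (log2 fold change 0.15, adjusted p = 0.216) and Atrx (log2 fold change -0.17, adjusted p = 0.154) had an unadjusted p under 0.05.

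Genes whose log2(RPKM + 0.1) followed the called members most closely over the 12 libraries are given as a description, as all share the same libraries. For Trim28 they were Gart, a purine synthesis enzyme (Pearson r = 0.94), Unc119 (0.935) and Pold1, the catalytic subunit of DNA polymerase delta (0.934). For Atrx they were Mdm2, the ubiquitin ligase of p53 (Pearson r = 0.943), Tbc1d23 (0.941) and the keratin gene Krt17 (0.936). These companions differed widely in the size of their change at 100 nM, from a log2 fold change of 0.19 for Gart to 1.05 for Unc119, and from -0.28 for Mdm2 to -3.40 for Krt17.

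A wider list of 48 genes that write, read, erase or maintain H3K9-linked silencing was then examined, of which 44 were tested and Mecom, Adnp, Kdm4d and Prdm16 lay under the filter. At 100 nM, 9 rose, 8 fell and 27 did not pass the test, which is 38.6% of the 44 against 23.4% of all tested genes. None exceeded 1.5-fold. The median log2 fold change was -0.01, and the median absolute value was 0.18 against 0.21 over all genes. At 10 nM, where 17.9% of all tested genes were called, 10 of the 44 rose and 4 fell, and 12 genes were called at both doses. The count of 17 depended on single libraries: it was 11 and 12 without replicate 1 or 2 of 0 nM and 10 without either 100 nM library. Over all tested genes the share called fell alike in these fits, from 23.4% to between 15.5 and 16.7%. The split of 9 higher and 8 lower became 9 and 2 with no normalization factors and 5 and 10 with no filter, where all genes went from 1151 higher and 1511 lower to 1153 and 1019, and to 1172 and 2215, respectively. Called under each of the 14 alternatives were 6 genes, Smarcad1, Morc3, Kdm4c and Rif1 (higher) and Trim24 and Kdm3b (lower).

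Of the 7 tested genes listed under HP1-bound or KAP1-bound proteins, 6 were called (85.7%, against 23.4% of all tested genes), 4 higher and 2 lower. The group is 1 small role among several, in a list chosen with earlier results of these data known. Its share was not tested against genes of like level. Smarcad1, a remodeller that binds KAP1, rose from 60.7 ± 0.287 to 83.8 ± 0.843 RPKM (SD, n = 2), or by 0.47 on the log2 scale (s.e. 0.0548; edgeR adjusted p = 3.7e-07). Trim24, a paralogue of Trim28, fell from 22.6 ± 0.0964 to 15.5 ± 0.294 RPKM (SD, n = 2), with a fitted log2 fold change of -0.54 (edgeR adjusted p = 2.1e-06). The KRAB zinc finger genes Zfp57 and Zfp809, whose products guide KAP1 to imprinted regions and to proviral DNA, rose by 0.20 and 0.37 on the log2 scale. Morc3, a GHKL-type ATPase gene, rose by 0.30 and Pogz, which encodes an HP1-binding zinc finger protein, had a log2 fold change of -0.23. Zfp809 (edgeR adjusted p = 0.0261) and Pogz (edgeR adjusted p = 0.0289) each kept the call under 8 of the 14 alternatives. Both missed it with DESeq2, among others. Trim33 (-0.042) was not called.

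The H3K9 demethylase genes moved both ways, with 2 higher, 2 lower and 6 not called (40% called, against 23.4% of all tested genes). Kdm4c, a JmjC demethylase of the trimethyl mark, rose from 20.4 ± 1.5 to 27.5 ± 0.651 RPKM (SD, n = 2; log2 fold change 0.43, edgeR adjusted p = 0.00025). Kdm3b, which acts on the lower methylation states, fell from 33.1 ± 0.802 to 22.7 ± 0.123 RPKM (SD, n = 2; log2 fold change -0.54, edgeR adjusted p = 4.0e-07). Its paralogue Kdm3a rose by 0.20 and Kdm1a (LSD1) had a log2 fold change of -0.29. Of the 4 genes of MORC2 and the HUSH complex, which silences transposons through H3K9me3, 50% were called. Mphosph8 (log2 fold change -0.22, edgeR adjusted p = 0.0371) and Fam208a, now called Tasor (log2 fold change -0.22, edgeR adjusted p = 0.0112), were lower. Pphln1 (0.23, adjusted p = 0.12) and Morc2a (0.074) were not called. Mphosph8 kept its call under 6 of the 14 alternatives, and missed it with the likelihood ratio test and with DESeq2, among others. Fam208a kept its call under 9 of the 14, and missed it with no normalization factors, among others. Atf7ip, the stabilising partner of SETDB1, rose by 0.33 (adjusted p = 0.00184), and Prdm2, an H3K9 methyltransferase gene, rose by 0.25 (adjusted p = 0.008). The HP1γ gene Cbx3 (-0.11, adjusted p = 0.239) was not called, as with Cbx1 and Cbx5.

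Of 10 genes for H3.3 and histone deposition, the group closest to Atrx and Daxx in function, 1 was called (10%, against 23.4% of all tested genes). That was H3f3b, an H3.3 gene, which went from 114 ± 0.775 to 95.4 ± 3.4 RPKM (SD, n = 2; log2 fold change -0.26, edgeR adjusted p = 0.00762). The other H3.3 gene, H3f3a, had a log2 fold change of -0.18 (adjusted p = 0.0912), and Hira, which deposits H3.3 at active genes, had one of 0.17 (adjusted p = 0.2). Of the 4 genes that maintain silent chromatin at replication, 50% were called. Rif1 rose by 0.23 and Hells, a remodeller needed for DNA methylation of repeats, fell by 0.26 on the log2 scale. Uhrf1 (-0.062) and Lrwd1 (-0.14) were not called. Neither H4K20 methyltransferase gene, Suv420h1 or Suv420h2, was called.

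**Figure D4:**
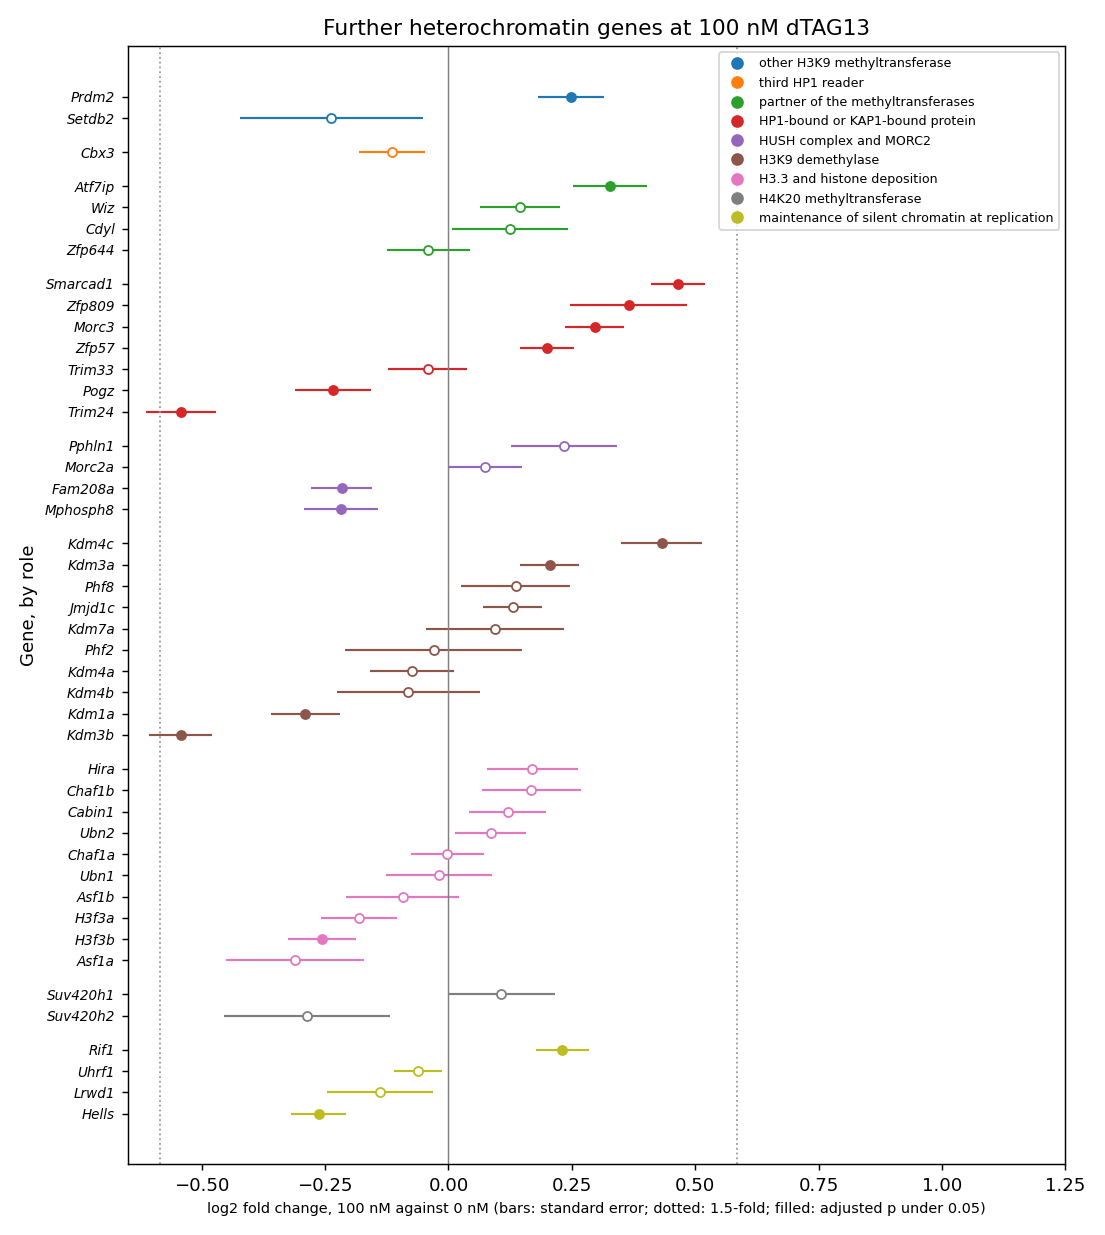
Log2 fold change at 100 nM against 0 nM, with its standard error, of the 44 tested genes of the wider list, grouped by role, filled where the adjusted p was under 0.05. The extremes are Smarcad1 at 0.47 and Trim24 and Kdm3b at -0.54, all inside the dotted lines at 1.5-fold.

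Genes that this machinery is known to silence were listed as well, and their signal was set beside that of weakly detected genes. The 11826 genes with a count and a mean under 1 RPKM held, by rising dose, 0.605 and 0.612%, 0.551 and 0.557%, 0.568 and 0.542%, 0.715 and 0.619%, 0.725 and 0.783%, and lastly 0.975 and 0.991% of a library's counts. Their share was thus highest in both 100 nM libraries. The mean number of them with at least 1 count was 6874.5 at 0 nM and 9353.5 at 100 nM. In the fit of all 23204 genes with a count, 385 of these 11826 rose and 97 fell at 100 nM. Over all 23204 genes, 1172 rose and 2215 fell. In that fit 5.05% of all genes were called higher, and of 20 listed germline and 2-cell-stage genes, 19 had a count and 3 were called higher, none lower. Those 3 were germline genes: Ddx4, the Vasa helicase gene, with a log2 fold change of 0.72 (edgeR adjusted p = 1.5e-07), Mael, of the piRNA pathway, with 1.03 (adjusted p = 0.00852), and Dazl, an RNA-binding protein gene, with 0.44 (adjusted p = 0.00837). Counts of Mael were 19 and 20 in the controls against 44 and 42 at 100 nM. Those of Ddx4 were 187 and 169 in the controls against 304 and 327 at 100 nM. All 3 genes passed the filter and so lay outside the 11826 weakly detected genes. Their control means were 10.5 RPKM for Ddx4, 2.11 RPKM for Mael and 9.14 RPKM for Dazl. None of the 6 genes of the 2-cell stage was called. Zscan4d, the only one over the filter, gave 19 and 11 counts in the controls against 17 and 15 at 100 nM. Zscan4c, under the filter, gave 14 and 8 against 3 and 5 (log2 fold change -1.54, edgeR adjusted p = 0.0975). The listed Magea genes and Wfdc15a had 0 to 3 counts in each control and 100 nM library, which left little room for a call. Whether the changes of Trim28 and Atrx bear on the share of weakly detected genes was not tested.

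**Figure D5:**
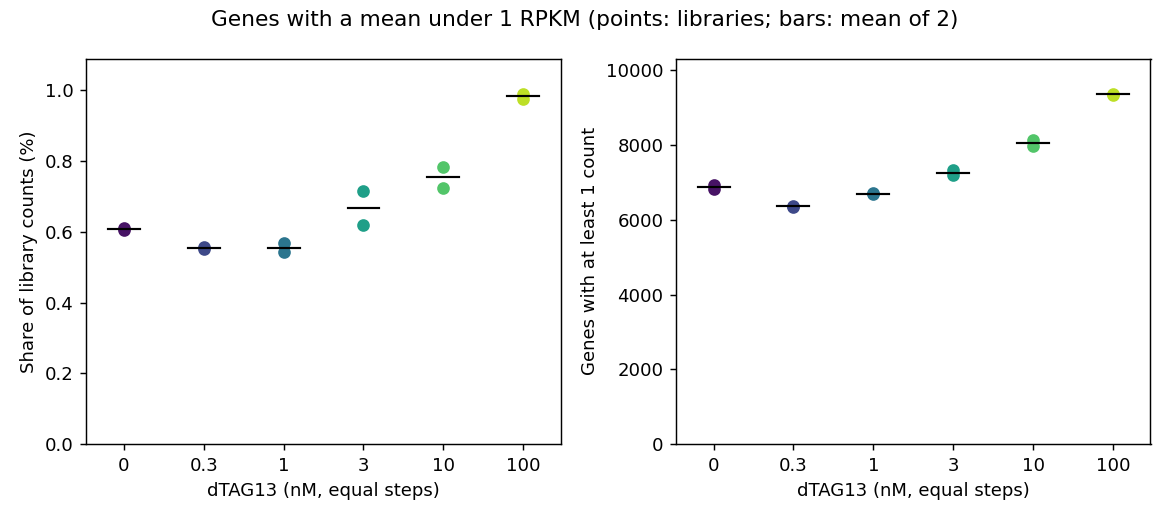
Genes with a mean under 1 RPKM, by library and dTAG13 dose in equal steps: their share of the library's counts in percent (left) and the number with at least 1 count (right), with bars at the mean of 2. The mean of 2 is lowest at 0.3 nM and highest at 100 nM in both panels, where the share is 0.975 and 0.991%.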

How the data were processed

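Total RNA of 12 libraries was sequenced with the SMART-Seq Stranded Kit. The deposited values are unnormalised counts of read pairs for each gene symbol, which the authors made with Trim Galore, HISAT2 on mm10 and featureCounts 2.0.1, which kept pairs with both ends mapped, skipped multi-mapping pairs and ignored strand, together with each gene's exon length. All sample columns were used. Here RPKM was computed from the counts with edgeR 4.0.16 (R 4.3.3), the 11378 genes averaging 1 RPKM or more across 12 libraries were kept, and the 6 conditions were fitted together with TMM factors of these genes. Calls were made by the quasi-likelihood test with Benjamini-Hochberg adjustment, where the study's methods name the likelihood ratio test. A fit of all 23204 genes with a count served the genes under the filter. Printed RPKM use the factors of the main fit, and the pseudocount for likeness was 0.1. The 12 libraries had 4663484 to 6375582 counts, and no molecular identifiers. Intervals reflect counting error and the spread between the 2 libraries of a condition, pooled over the 6 conditions and shared in part across genes. The labels do not say whether these libraries came from separate cultures, while the study describes its expression data as coming from independent experiments; p-values measure the spread between these libraries. The scripts were tested on simulated counts.

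Named genes were all 10 members and the called genes of the wider list (up to 10 each way). Also named were listed silenced targets called at 100 nM and the 3 genes most like the called members. Trim33, Pphln1, Morc2a, Cbx3, H3f3a, Hira, Uhrf1, Lrwd1, Suv420h1, Suv420h2, Zscan4c, Zscan4d, Wfdc15a, the Magea genes and the markers were named beside them after their values were seen. The members and lists were chosen with earlier results of these data known. Alternatives covered the test (likelihood ratio, DESeq2 1.42.0), normalization, filter, libraries in the fit, a replicate block, the fold minimum and single libraries left out; leaving out Rn45s and Rpph1, and single libraries at 10 nM and in the trend, were chosen after seeing the data.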

Additional observations from a re-analysis of the deposited data

How the results depend on the processing

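Recomputed under 14 alternatives for each of the 10 genes, 129 fold changes at 100 nM kept their direction and side of the threshold and 9 turned sign. Trim28 kept its call in every one of its 14, with log2 values from 0.25 to 0.38. With no normalization factors the count of called members was 1, as Atrx (-0.23, adjusted p = 0.0525) missed the threshold, and Cbx5 turned to 0.007. With no filter Setdb1 was called (-0.23), and Ehmt1 (-0.064) and Daxx (-0.08) turned negative. With single libraries left out, genes without a call ranged from 0 to 0.272 (Suv39h1), -0.098 to 0.125 (Ehmt1), -0.083 to 0.005 (Cbx5) and -0.039 to 0.041 (Daxx). A fold over 1.5 left 0 members and 0 genes of the wider list at 100 nM. The wider list held 11 called genes with no normalization factors, 10 to 12 without single libraries and 14 to 17 under the other alternatives. Its share of higher calls was 52.9%, 81.8% with no normalization factors and 33.3% with no filter, against 43.2%, 53.1% and 34.6% over all genes called.

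The count at 10 nM ran from 0 to 1 without single libraries, and that of the trend from 2 to 4. A replicate block left 2 members called at 100 nM, 3 in the trend and 17 genes of the wider list, and raised the count at 3 nM from 0 to 1 (Trim28). Correlations of same-numbered deviations ran from -0.12 to 0.10 over 15 pairs of conditions, so no strong shift shared by replicate number was seen. Whether same-numbered libraries were handled together cannot be told from these values. Single libraries left out leave 1 sample in a condition, which the pooled spread assumes to vary like the others. Counts of 111 to 178 for Suv39h1 limit what could be seen there; the causes of these shifts were not tested.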
